A study of Mus musculus with 18 samples.

Results

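Expression of 10 genes that encode proteins of the synaptic vesicle and of its release machinery was followed in cultured mouse neurospheres before and during differentiation. The genes were Syt1, Sv2a, Syp, Syn1, Syn2, Rab3a, Vamp2, Snap25, Stx1a and Snap91. They were taken by name, as every one of them is a protein of the presynaptic terminal, and each was read from the probe set that carried its symbol alone and had the highest mean over the 18 arrays. They are 10 of the 22180 genes with a probe set of a single symbol, and all 10 were among the 19016 genes that passed the filter on low signal and were tested. Syp had 2 such probe sets and the other 9 genes had 1 each.

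Neurospheres are floating clusters of neural stem and progenitor cells that give rise to neurons, astrocytes and oligodendrocytes when made to differentiate. Total RNA of female mouse neurospheres was measured at day 0, as neurospheres, and at day 4 of differentiation in 3 genotypes. These were wild type cells, cells that lacked Pcdh19 (an X-linked cell adhesion protocadherin), and a mosaic culture in which cells of both genotypes were mixed. The sources used here do not state strain, age, brain region or the proportions of the mix. Each of the 6 combinations of genotype and day was measured on 3 Affymetrix arrays, which the series describes as technical replicates. The p-values below therefore measure the spread between these arrays, which may be technical, and the results of 1 culture may stand behind each group.

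At a chemical synapse, transmitter is stored in small vesicles that dock at the active zone, fuse with the plasma membrane when calcium enters, and are then retrieved and refilled. Fusion is driven by the SNARE proteins, of which VAMP2 sits on the vesicle and syntaxin 1A and SNAP-25 on the plasma membrane, and it is triggered by the calcium sensor synaptotagmin 1. Most of these genes are used chiefly by neurons and neuroendocrine cells, and many of them are known targets of the repressor REST in cells that are not neurons.

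Values are log2 signals as deposited, so a difference is the base 2 logarithm of a fold change in signal. A gene was called changed at a Benjamini-Hochberg adjusted p under 0.05 from limma, fitted on all 18 arrays and adjusted over the 19016 genes tested. Array medians lay between 4.85 and 4.99. Arrays of the same group correlated with r of 0.981 to 0.986 over genes and arrays of different days with r of 0.955 to 0.972, and the first principal component, which held 61.2% of the variance, separated the days. Pcdh19 itself averaged 6.78 ± 0.11 and 6.90 ± 0.09 (SD, n = 3) in wild type at day 0 and day 4, 5.51 ± 0.15 and 5.70 ± 0.17 in knockout, and 6.0 ± 0.33 and 6.38 ± 0.79 in mosaic. It was lower in every knockout array than in every wild type array, but the difference was not called at day 0 (−1.27, adjusted p = 0.855) or at day 4 (−1.20, adjusted p = 0.195), and the sources used here do not state whether its probe set covers the deleted sequence. The 3 mosaic arrays of day 4 read 6.54, 7.09 and 5.52 for Pcdh19, the last of these at the level of the knockout arrays. Of 8 neural stem cell markers 6 fell in each genotype between the days, all 7 cell cycle markers tested fell, and all 7 oligodendrocyte markers tested rose.

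Promoters are shown for 4 of the genes. The sequence upstream of strong risers (Syt1, Rab3a) can be read beside that of a moderate riser with a well-studied promoter (Syn1). Stx1a, which was not called in any genotype, is shown as well. The RefSeq table (GRCm38.p6) held 11 promoter windows for 8 of the 10 genes, and Snap25 and Vamp2 had none. Each line gives the 250 bases that end just before the gene start, in the direction of transcription. Capitals mark, on either strand, CAGCACC (the left arm of the element bound by REST), GGACAG (its right arm) and TGACG (the core of the cyclic AMP response element).
Syt1, chr10:109010976-109011225, minus strand: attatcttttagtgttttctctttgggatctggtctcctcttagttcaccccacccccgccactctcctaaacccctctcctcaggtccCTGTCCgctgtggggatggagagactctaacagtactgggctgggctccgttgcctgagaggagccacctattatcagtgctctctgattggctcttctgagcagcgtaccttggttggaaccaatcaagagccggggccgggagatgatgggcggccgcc
Rab3a, chr8:70754453-70754702, plus strand: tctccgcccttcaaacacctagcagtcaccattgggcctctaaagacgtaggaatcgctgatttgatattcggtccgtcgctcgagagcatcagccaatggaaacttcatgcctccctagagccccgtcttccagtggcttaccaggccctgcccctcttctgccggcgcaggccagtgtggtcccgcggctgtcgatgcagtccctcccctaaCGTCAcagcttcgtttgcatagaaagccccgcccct
Syn1, chrX:20920919-20921168, minus strand: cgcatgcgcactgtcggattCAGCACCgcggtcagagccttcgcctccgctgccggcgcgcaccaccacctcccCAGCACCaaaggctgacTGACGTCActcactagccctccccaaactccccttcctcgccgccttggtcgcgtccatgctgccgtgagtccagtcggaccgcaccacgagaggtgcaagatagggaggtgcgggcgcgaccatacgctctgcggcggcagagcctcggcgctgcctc
Stx1a, chr5:135023232-135023481, plus strand: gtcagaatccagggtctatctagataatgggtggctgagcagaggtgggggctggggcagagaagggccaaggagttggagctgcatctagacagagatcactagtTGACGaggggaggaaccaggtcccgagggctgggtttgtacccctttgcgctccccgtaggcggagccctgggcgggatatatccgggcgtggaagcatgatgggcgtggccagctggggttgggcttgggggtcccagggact

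In the Syn1 promoter CAGCACC began at −230 and again at −176, counted from the gene start, and TGACG stood on both strands in overlapping matches that began at −159 and −156. In the Syt1 promoter shown GGACAG matched on the opposite strand at −161. TGACG matched at −36 in Rab3a, on the opposite strand, and at −144 in Stx1a, so this motif was present upstream of a gene that rose and of a gene that was not called. Over windows of 300 bases (250 before and 50 after the start), CAGCACC was found in 1 of the 11 windows (Syn1) and in 7.14% of the 32851 promoters in the table. GGACAG was found in 2 of the 11 (Syt1 and Snap91) against 22.2% of promoters, and TGACG in 3 (Syn1, Stx1a and Rab3a) against 20.8%. The GC box GGGCGG and the E-box CANNTG were each found in 7 of the 11 windows, against 35.7% and 72.3% of promoters. These are matches of letters and were not tested for binding or function.

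Between day 0 and day 4, 7 of the 10 genes rose in wild type neurospheres: Syt1, Sv2a, Snap91, Rab3a, Syn2, Syn1 and Syp. Across all genes tested, 17.2% were called higher in that comparison. In knockout 7 of the 10 rose against 15.0% of all genes, and in mosaic 7 rose against 14.4%, and they were the same 7 genes each time. The day 4 arrays of these 7 lay above the day 0 arrays without overlap in every genotype, as did those of 27.1%, 22.1% and 20.3% of all genes. Snap25 and Stx1a were not called in any genotype. None of the 10 fell in wild type or knockout, where 16.3% and 12.4% of all genes did; at an unadjusted p under 0.05 the count that was lower stood at 0 and 1. Vamp2 fell in mosaic, as did 11.9% of all genes. The median difference of the 10 genes was 0.56, 0.66 and 0.69 for the 3 genotypes in that order, beside 0.09, 0.02 and 0.02 over all genes tested. In bulk RNA of this kind, a change in the number of cells that express a gene and a change in the RNA per cell cannot be told apart. After quantile normalization of the arrays the share of calls that were higher in wild type moved from 51.4% to 61.6%, and 7 of the 10 genes still rose.

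**Figure D1:**
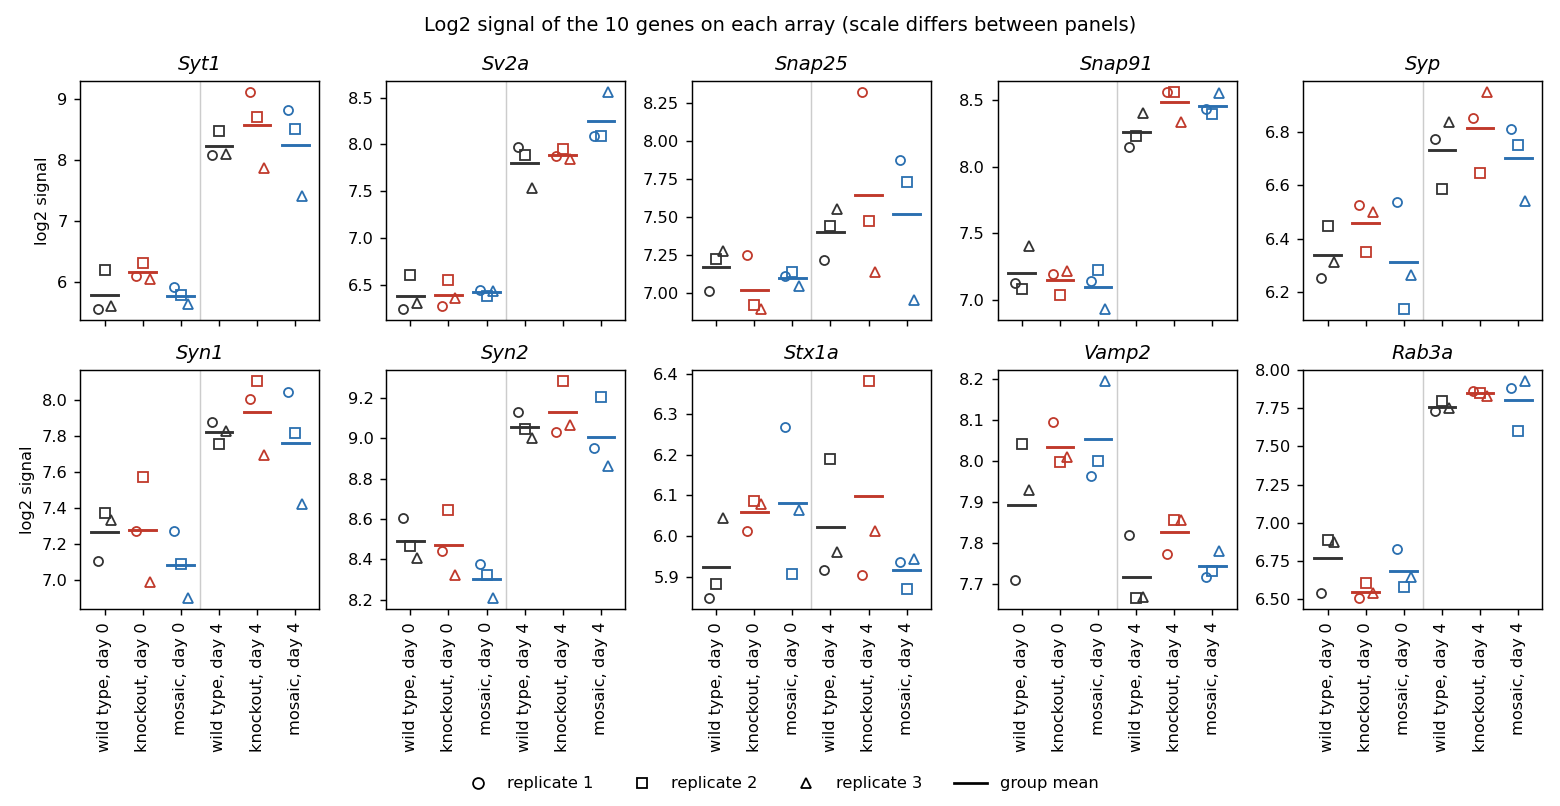
Log2 signal of each of the 10 genes on each of the 18 arrays, with 1 panel per gene and the 6 groups along the horizontal axis; symbols mark the replicate and horizontal bars the group mean of 3 arrays. The 2 days separate without overlap in Syt1, Sv2a, Snap91, Rab3a, Syn2 and Syp, while Stx1a and Snap25 overlap.

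**Figure D2:**
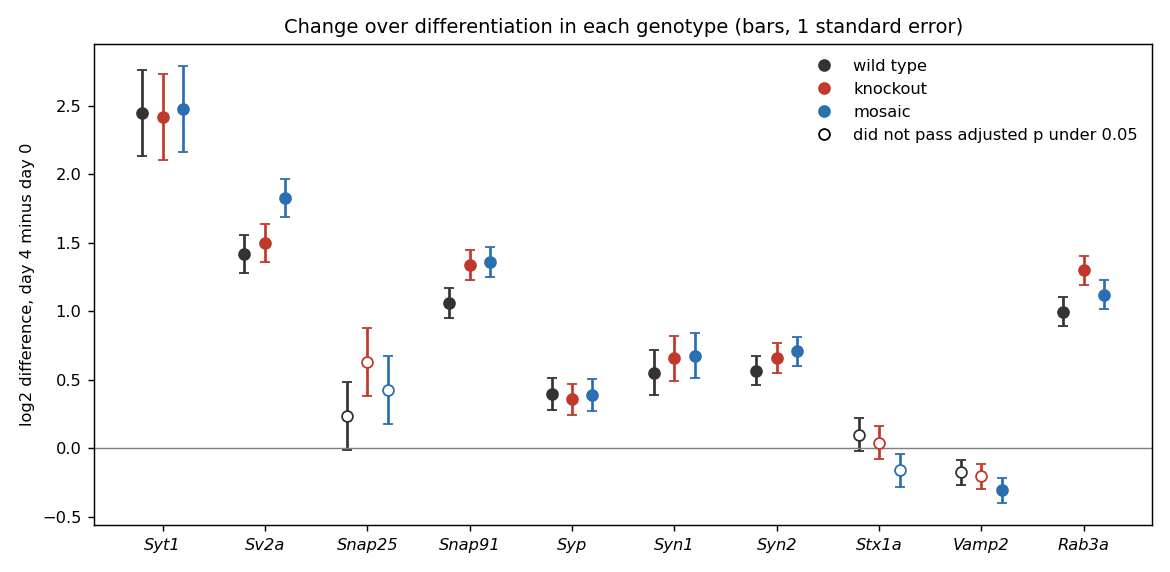
Log2 difference between day 4 and day 0 for each gene in wild type, knockout and mosaic neurospheres, with bars of 1 standard error from limma; open circles did not pass an adjusted p under 0.05. Syt1 stands highest at 2.42 to 2.48 and Vamp2 is the only gene below 0 in all 3 genotypes.

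Syt1, the calcium sensor of fast release, showed the largest rise of the 10. In wild type it read 5.55, 6.19 and 5.6 on the day 0 arrays and 8.09, 8.49 and 8.11 on the day 4 arrays. In knockout it read 6.10, 6.31 and 6.05 and then 9.12, 8.72 and 7.88, and in mosaic 5.91, 5.78 and 5.63 and then 8.83, 8.51 and 7.42. Every day 4 array was above every day 0 array in all 3 genotypes, and the day 4 arrays of knockout and mosaic were spread more widely than those of wild type. The rise was 2.45 in wild type (5.45-fold, SE 0.314, adjusted p = 1.70e-05), 2.42 in knockout (5.34-fold, adjusted p = 1.98e-05) and 2.48 in mosaic (5.57-fold, adjusted p = 1.49e-05). Among 19016 genes these were the differences ranked 20, 23 and 29 from the highest.

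Sv2a, a vesicle glycoprotein best known as the binding site of the antiepileptic drug levetiracetam, rose in all 3 genotypes as well. Its wild type arrays read 6.24, 6.60 and 6.30 at day 0 and 7.97, 7.89 and 7.54 at day 4. Knockout arrays read 6.27, 6.55 and 6.36 and then 7.88, 7.95 and 7.84, and mosaic arrays 6.45, 6.38 and 6.44 and then 8.09, 8.09 and 8.56. The days did not overlap, and the 3 mosaic arrays of day 4 were the highest of the series. The rise was 1.42 in wild type (2.67-fold, SE 0.138, adjusted p = 9.65e-07), 1.5 in knockout (2.82-fold, adjusted p = 4.95e-07) and 1.83 in mosaic (3.54-fold, adjusted p = 6.91e-08).

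Rab3a, the small GTPase that accompanies vesicles to the active zone, had day 0 arrays between 6.50 and 6.89 and day 4 arrays between 7.60 and 7.93 over the 3 genotypes. Its wild type mean went from 6.77 ± 0.20 to 7.76 ± 0.03 (SD, n = 3), its knockout mean from 6.55 ± 0.05 to 7.85 ± 0.02 and its mosaic mean from 6.68 ± 0.13 to 7.81 ± 0.18. The rise was 1.0 in wild type (1.99-fold, SE 0.105, adjusted p = 2.36e-06), 1.30 in knockout (adjusted p = 1.34e-07) and 1.12 in mosaic (adjusted p = 6.72e-07). The 9 day 0 arrays and the 9 day 4 arrays of Rab3a were separated by a gap of more than the spread within either day.

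Snap91 encodes AP180, the clathrin assembly protein of vesicle retrieval, and is the gene of the recycling step among the 10. It read 7.12, 7.08 and 7.41 at day 0 and 8.15, 8.23 and 8.41 at day 4 in wild type, 7.20, 7.04 and 7.22 and then 8.56, 8.56 and 8.34 in knockout, and 7.14, 7.23 and 6.93 and then 8.44, 8.40 and 8.55 in mosaic. No array of day 4 reached down to an array of day 0. The rise was 1.06 in wild type (2.08-fold, SE 0.110, adjusted p = 1.99e-06), 1.34 in knockout (adjusted p = 1.54e-07) and 1.36 in mosaic (adjusted p = 1.47e-07).

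The synapsins coat vesicles and tether them in the reserve pool, and both that were measured here rose by less than Syt1, Sv2a, Snap91 and Rab3a. Syn2 went from 8.49 ± 0.10 to 9.06 ± 0.07 in wild type (SD, n = 3), a rise of 0.57 (1.48-fold, adjusted p = 0.000745), with rises of 0.66 in knockout (adjusted p = 0.000202) and 0.71 in mosaic (adjusted p = 0.000101). Its day 0 arrays ran from 8.21 to 8.64 and its day 4 arrays from 8.86 to 9.28. Syn1, whose promoter is printed above, went from 7.10, 7.37 and 7.33 to 7.88, 7.76 and 7.83 in wild type, a rise of 0.55 (1.47-fold, SE 0.165, adjusted p = 0.0165). It rose by 0.66 in knockout (adjusted p = 0.00629) and by 0.67 in mosaic (adjusted p = 0.00545). The wild type call of Syn1 was lost without day 0 replicate 1 (0.47, adjusted p = 0.0705) and without day 4 replicate 1 (0.52, adjusted p = 0.0533), whereas the calls in knockout and mosaic held without any of their arrays.

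Syp, which encodes synaptophysin, the abundant vesicle membrane protein used as a marker of synapses, showed the smallest rise that was called. Its wild type arrays went from 6.25, 6.45 and 6.31 to 6.77, 6.59 and 6.84, its knockout arrays from 6.52, 6.35 and 6.50 to 6.85, 6.64 and 6.95, and its mosaic arrays from 6.54, 6.14 and 6.27 to 6.81, 6.75 and 6.54. The days did not overlap within a genotype, although in mosaic the lowest day 4 array and the highest day 0 array nearly met. The rise was 0.40 in wild type (1.32-fold, SE 0.116, adjusted p = 0.0150), 0.36 in knockout (adjusted p = 0.0306) and 0.39 in mosaic (adjusted p = 0.0198).

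These calls of Syp were close to the threshold. In wild type the call was lost without day 0 replicate 1 (adjusted p = 0.0584) or day 4 replicate 3 (adjusted p = 0.0592). In knockout it was lost without day 0 replicate 2 (adjusted p = 0.116) or 3 (0.0528) and without day 4 replicate 1 (0.0783) or 3 (0.128). In mosaic it was lost without day 0 replicate 2 (adjusted p = 0.106) or 3 (0.0629) and without day 4 replicate 1 (0.0778) or 2 (0.0647). The second probe set of Syp read 3.21 to 4.10, passed the 25th percentile of signal on 3 of the 18 arrays, and, put in place of the first, rose by 0.47 in wild type (adjusted p = 0.0143) and differed by −0.11 in knockout and 0.02 in mosaic, neither of them called.

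None of the 3 SNARE genes was called higher in any genotype, although the differences of Snap25, given below, were above 0 in all 3. Vamp2, the SNARE of the vesicle membrane, read 7.71, 8.04 and 7.93 at day 0 and 7.82, 7.67 and 7.67 at day 4 in wild type, 8.09, 8.0 and 8.01 and then 7.77, 7.86 and 7.86 in knockout, and 7.96, 8.0 and 8.20 and then 7.72, 7.73 and 7.78 in mosaic. Day 4 lay below day 0 without overlap in knockout, as for 17.1% of all genes, and in mosaic, as for 17.8%, while the wild type arrays overlapped. The difference was −0.31 in mosaic (1.24-fold lower, SE 0.0917, adjusted p = 0.0185), −0.21 in knockout (adjusted p = 0.113) and −0.18 in wild type (adjusted p = 0.150). The mosaic call was lost without day 0 replicate 3 (−0.24, adjusted p = 0.0971), without day 4 replicate 1 (0.0511) or 2 (0.0504), and when the arrays were set to a common median (−0.27, adjusted p = 0.0564). Without day 0 replicate 1 the wild type difference was called instead (−0.27, adjusted p = 0.0400).

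Snap25, the plasma membrane SNARE that botulinum toxin A cleaves, read 7.01, 7.22 and 7.27 at day 0 and 7.21, 7.44 and 7.55 at day 4 in wild type. In knockout it read 7.25, 6.91 and 6.89 and then 8.33, 7.47 and 7.14, and in mosaic 7.11, 7.13 and 7.04 and then 7.87, 7.73 and 6.95. Days overlapped in every genotype, and the knockout and mosaic arrays of day 4 covered a wider range than the difference itself. The differences were 0.23 (95% interval −0.29 to 0.76, adjusted p = 0.489), 0.63 (0.10 to 1.15, adjusted p = 0.0740) and 0.43 (−0.10 to 0.95, adjusted p = 0.245). The results of knockout and mosaic depended on single day 4 arrays. Without replicate 3 the difference was 0.88 in knockout (limma, adjusted p = 0.0161) and 0.71 in mosaic (adjusted p = 0.0407), both called. Without replicate 1, the highest of its group in both, the difference was 0.29 in knockout and 0.25 in mosaic, and neither was called. The wild type difference was not called under any setting.

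Stx1a, which encodes the partner of SNAP-25 on the plasma membrane, stayed between 5.85 and 6.27 on the 9 day 0 arrays and between 5.87 and 6.38 on the 9 day 4 arrays. Its differences were 0.10 in wild type (95% interval −0.16 to 0.35, adjusted p = 0.551), 0.04 in knockout (−0.21 to 0.29, adjusted p = 0.855) and −0.16 in mosaic (−0.42 to 0.09, adjusted p = 0.372). Days overlapped in every genotype. The upper ends of these intervals lie below the rises of Syt1, Sv2a, Snap91 and Rab3a.

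Other proteins of the terminal were taken from lists by role. Over all genes tested, 17.2%, 15.0% and 14.4% were higher in wild type, knockout and mosaic, and 16.3%, 12.4% and 11.9% were lower. The counts of each list below are to be read beside these shares. Of 23 other vesicle membrane and calcium sensor genes tested, 8 rose and 2 fell in wild type, and 6 rose and 2 fell in knockout and in mosaic, with medians of 0.25, 0.19 and 0.16. Rph3a, a Rab3 effector on vesicles, rose by 1.35 in wild type, by 1.57 in knockout and by 1.47 in mosaic (adjusted p of 2.14e-07, 3.94e-08 and 8.66e-08). Syngr1, a vesicle protein related to synaptophysin, rose by 0.67 in wild type (adjusted p = 0.00236) and 0.54 in mosaic (adjusted p = 0.0112), and differed by 0.36 in knockout (adjusted p = 0.0891); its mosaic call was lost without day 4 replicate 3 (0.39, adjusted p = 0.0681). The 2 genes that fell in each genotype were Sv2c and Rab3b. The list holds many relatives of the genes described above, other synaptotagmins among them, so this kinship was not read as a pattern. Sv2c, a close relative of Sv2a, fell by 1.44 in wild type (adjusted p = 4.88e-06), by 1.26 in knockout (1.93e-05) and by 1.14 in mosaic (5.33e-05). Rab3b, a close relative of Rab3a, fell by 1.43 (adjusted p = 0.0116), by 1.22 (0.0327) and by 1.36 (0.0185).

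The fall of Rab3b was the less certain of the pair. Its call in knockout held only without day 0 replicate 3, with values of −1.75 to −0.79 as each was left out, the first of these without that array. In mosaic it was lost without day 0 replicate 2 (−0.98, adjusted p = 0.108) or day 4 replicate 3 (−1.20, adjusted p = 0.0722), and in wild type without day 4 replicate 3 (−1.20, adjusted p = 0.0538). The calls of Sv2c and Rph3a held without any single array in all 3 genotypes.

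Of 12 further genes of the fusion machinery and its regulators, 1 rose and 2 fell in wild type, 2 rose and 2 fell in knockout, and 1 rose and 1 fell in mosaic, with medians of −0.03, 0.12 and 0.06. These counts lay near or below the shares of all genes given above. Cplx1, whose product complexin 1 binds the assembled SNARE bundle, rose by 0.65, 0.76 and 0.91 (adjusted p of 0.000805, 0.000217 and 3.63e-05). Stxbp5, which encodes tomosyn, an inhibitor of SNARE assembly, fell by 0.77, by 0.44 and by 0.44 (adjusted p of 2.44e-05, 0.00367 and 0.00383). Vamp1, the closest relative of Vamp2, fell by 0.46 in wild type (adjusted p = 0.00261) and by 0.55 in knockout (adjusted p = 0.000698) and differed by −0.20 in mosaic (adjusted p = 0.169); without mosaic day 0 replicate 1 it was called there too (−0.32, adjusted p = 0.0269). The count of 2 risers in knockout was 1 whichever of the 6 arrays was left out, and that of 1 in mosaic was 2 without day 4 replicate 3. The count of 1 that fell in mosaic was 2 without day 0 replicate 1 or without day 4 replicate 1.

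Of 20 active zone and release site genes, 5 rose in wild type, 11 in knockout and 8 in the mosaic culture, with medians of 0.24, 0.39 and 0.19. None fell (limma; 0, 1 and 0 were lower at an unadjusted p under 0.05), save 1 in knockout without its day 4 replicate 3. The counts of the genotypes were not tested against each other. Apba1, the Munc18-binding adaptor Mint1, rose by 0.82, 1.12 and 1.35 (adjusted p of 0.00155, 0.000114 and 1.60e-05). Cacnb4, a subunit of presynaptic calcium channels, rose by 0.75, 0.71 and 0.94 (adjusted p of 0.000166, 0.000267 and 1.67e-05). Rims2, a scaffold that binds Rab3, rose by 0.38, 0.66 and 0.68 (adjusted p of 0.0454, 0.00184 and 0.00152), and Erc1, another scaffold, by 0.44, 0.61 and 0.77 (0.0265, 0.00439 and 0.000676). The wild type count lay between 2 and 5 as single arrays were left out: Rims2 kept its call only without day 4 replicate 3, and Erc1 only without day 0 replicate 1 or 2.

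Retrieval of vesicles after fusion gave 8 risers and 2 genes that fell among 15 tested in wild type, 9 and 1 in knockout, and 10 and 1 in mosaic, with medians of 0.38, 0.36 and 0.37. Dnm3, a dynamin that cuts vesicles from the membrane, rose by 1.69, 1.93 and 2.0 (adjusted p of 2.05e-07, 4.44e-08 and 3.26e-08). Bin1, a membrane-bending amphiphysin relative, rose by 1.25, 1.56 and 1.6 (7.90e-07, 6.91e-08 and 5.67e-08), and Dnajc6, the neuronal auxilin that helps uncoat clathrin, by 1.18, 1.28 and 1.27 (6.62e-05, 3.10e-05 and 3.05e-05). Amph, which encodes amphiphysin itself, fell by 1.21, by 1.25 and by 1.12 (adjusted p of 9.62e-08, 6.18e-08 and 2.08e-07). All of these calls held without any single array, while the other wild type gene that fell lost its call without day 0 replicates 1 or 2 or day 4 replicate 3. Bin1 is also expressed by oligodendrocytes, whose markers rose in the same samples (mean level of 7 oligodendrocyte markers 5.49 to 6.03 at day 0 and 8.85 to 9.53 at day 4); their part in the rises of this list was not tested.

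Of 7 vesicular transmitter transporters, 3 rose in wild type and none was called in knockout or mosaic (limma; 1 higher and 1 lower in knockout and 0 in mosaic at an unadjusted p under 0.05), with medians of 0.33, 0.16 and 0.03. These were Slc32a1, which loads GABA (0.43, adjusted p = 0.0238), Slc17a7, which loads glutamate (0.34, adjusted p = 0.0455), and Slc18a1, which loads monoamines (0.28, adjusted p = 0.0294). In knockout the 3 differed by 0.21, 0.33 and 0.16 and in mosaic by 0.21, −0.24 and −0.08. Signals of this list were low. In wild type the mean of the 7 was 4.34 at day 0 and 4.65 at day 4, below the array medians of 4.85 to 4.99. The wild type count ran from 0 to 4 as each array was left out: it was 0 without day 0 replicates 2 or 3 or day 4 replicates 1 or 3, 1 without day 4 replicate 2, and 1 with the arrays at a common median.

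The members of the same families that cells use for fusion outside the synapse were set beside them. Of 13 such widely expressed relatives, 4 rose and 2 fell in wild type and in knockout, and 4 rose and 1 fell in mosaic, with medians of 0.17, 0.08 and 0.05. Snap29 rose by 0.40, 0.57 and 0.72, Stx2 by 0.38, 0.46 and 0.64, Stxbp2 by 0.75, 0.50 and 0.95, and Stxbp3 by 0.37, 0.53 and 0.75. The call of Stxbp2 in knockout was lost without day 0 replicates 1 or 3 or day 4 replicates 2 or 3 (largest adjusted p = 0.0804), and that of Stxbp3 in wild type without day 0 replicates 1 or 2 or day 4 replicate 2 (largest 0.0720). Snap23, the counterpart of Snap25 in most other cells, fell by 0.60 (adjusted p = 0.000557), by 0.55 (0.00125) and by 0.36 (0.0218), the last of these lost without mosaic day 0 replicate 3 or day 4 replicates 1 or 2 (adjusted p of 0.0733, 0.0974 and 0.0629). Stx4a fell by 0.36 in wild type (adjusted p = 0.0240) and by 0.45 in knockout (0.00668) and differed by −0.29 in mosaic (0.0705), and its wild type call held only without day 0 replicate 1 or day 4 replicate 2. Vamp3, the counterpart of Vamp2, differed by −0.07, −0.13 and −0.23, and Sypl, that of Syp, by 0.22, 0.04 and 0.23, none of them called. Rab3d (0.18, 0.12 and 0.05), Rab27a (0.01, 0.14 and −0.05), Stx3 (−0.09, 0.07 and 0.06) and Vamp8 (0.17, 0.08 and −0.13) were not called either. Vamp7 differed by −0.37 in wild type (adjusted p = 0.0555), −0.27 in knockout and 0.01 in mosaic, and its wild type difference was called without day 0 replicate 2 (−0.47, adjusted p = 0.0352).

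**Figure D3:**
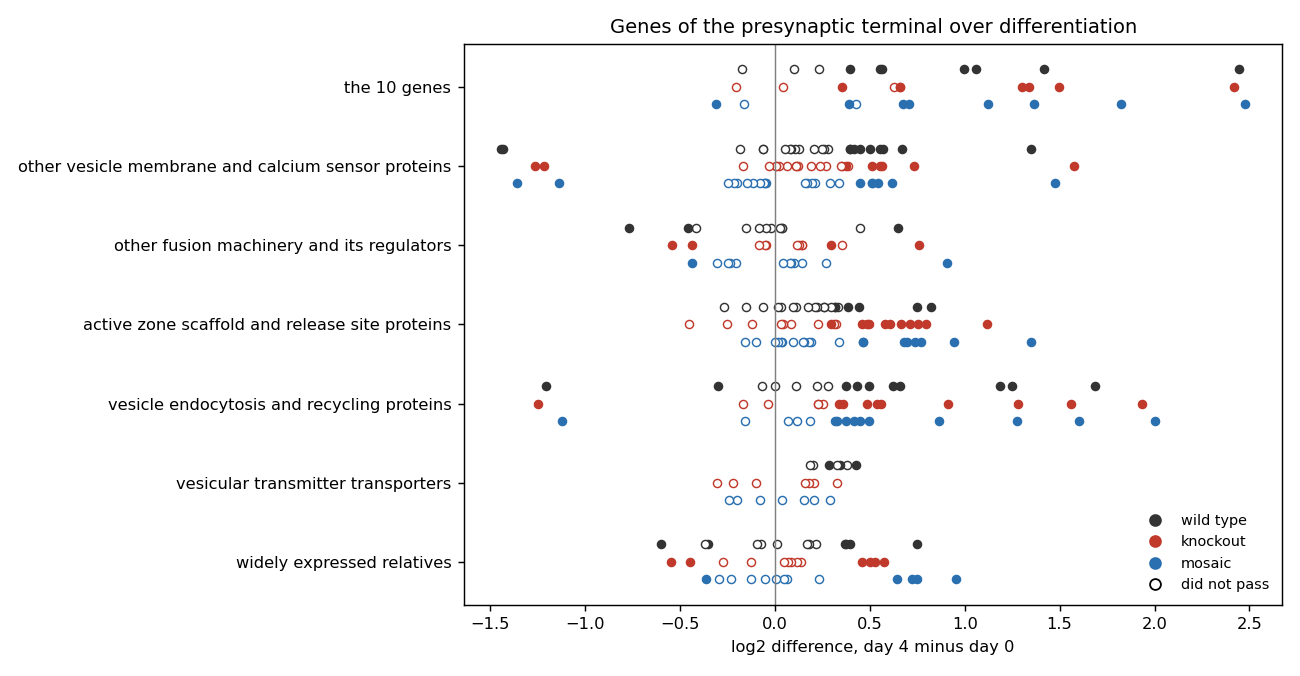
Log2 difference between day 4 and day 0 of each tested gene in the 10 vesicle genes and in 6 lists by role, with 1 point per gene and genotype; filled points passed an adjusted p under 0.05. The 10 genes reach 2.48 and hold 7 filled points above 0 in each genotype, while the other vesicle genes and the endocytosis genes have filled points on both sides, among them Sv2c, Rab3b and Amph.

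The markers that accompany these changes were neuronal as well as glial. Of 10 neuron markers tested, 6 rose in each genotype, among them Elavl3 (2.07, 2.19 and 2.31), Ina (1.13, 1.33 and 1.18), Tubb3 (0.91, 0.98 and 0.95) and Nefl (0.77, 0.86 and 1.43), and Elavl4 fell in wild type (by 0.51, adjusted p = 0.0174) and in mosaic (by 0.44, adjusted p = 0.0441), as named after its values were seen. The call of Nefl in wild type (adjusted p = 0.0591) and that of Elavl4 were lost without day 0 replicate 1, and Elavl4 in mosaic kept its call only without day 4 replicates 1 or 2. Their mean level was 6.47 to 6.69 over the 9 day 0 arrays and 6.94 to 7.45 over the 9 day 4 arrays. Of 7 neuroblast markers 4 rose in each genotype, with Dcx at 1.74, 1.94 and 1.99, although in mosaic 2 rose without day 0 replicate 2 or day 4 replicates 1 or 2. Other neuroblast markers fell: Sox11 by 0.63, by 0.42 and by 0.57 (adjusted p of 0.00115, 0.0209 and 0.00262), and Cd24a by 0.57 in wild type (0.00282). The knockout call of Sox11 was lost without day 0 replicates 1 or 2 or day 4 replicate 3 (0.0506, 0.0581 and 0.124), and 2 of these markers fell in knockout without day 4 replicate 1. Of 8 oligodendrocyte progenitor markers 7 rose in each genotype, and 1 fell in knockout, a call lost without day 0 replicates 1 or 2 or day 4 replicates 1 or 3; without wild type day 0 replicate 1 or mosaic day 4 replicate 3, 1 fell there as well. Of 8 astrocyte markers 6 rose and 2 fell in each genotype. Gfap, whose product is the filament protein of astrocytes, fell by 1.68, by 1.2 and by 1.11 (adjusted p of 0.000161, 0.00297 and 0.00521), and Aldh1l1 fell by 0.59, by 0.57 and by 0.55 (0.00985, 0.0149 and 0.0190). Of the astrocyte markers 1 fell, not 2, in knockout without day 0 replicate 3 or day 4 replicate 1, and in mosaic without day 0 replicates 2 or 3 or day 4 replicate 1. The medians of the neuron markers were 0.63, 0.61 and 0.69, beside 0.56, 0.66 and 0.69 for the 10 vesicle genes. A rise of this size was not particular to neuron markers. In wild type the mean level went from 6.92 to 7.68 for the 10 genes and from 6.61 to 7.21 for the neuron markers. It went from 9.23 to 9.92 for the oligodendrocyte progenitor markers and from 9.12 to 9.57 for the astrocyte markers. The part of any 1 cell type in the rise of the vesicle genes was not tested.

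Over the 18 arrays, each gene was compared with the mean of the 10 genes after each had been centred and scaled. Syt1 followed this mean with r of 0.97, Rab3a with 0.94, Snap91 and Syn1 with 0.93, Syn2 with 0.91, Sv2a with 0.90, Syp with 0.87 and Snap25 with 0.70, against 0.16 for Stx1a and −0.62 for Vamp2. All of these values include the gene itself in the mean and share the split into 2 days. Between pairs of the 10 genes the median r was 0.72 (45 pairs, −0.77 to 0.97), and after removal of the group means it was 0.06. Outside the 10, the genes most like the mean were Rtl8c and Plscr2 (r of 0.97), Scap, Fam222b, Kit, Dcaf7, Cnih2 and Ina (0.96 to 0.97). Of these 8, Ina, an intermediate filament of neurons, and Cnih2, an auxiliary subunit of AMPA receptors, are known for roles in neurons. The r of the 8 genes lay between 0.963 and 0.973, so their order carries little. The list was not read as one of neuron genes, and the cell types behind it were not tested.

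Genotype was compared within each day, and no gene of the 19016 tested was called in any of the 3 pairwise comparisons at either day (0% of all genes), so 0 of the 10 was called by limma. At an unadjusted p under 0.05 the count was 0 of 10 for knockout against wild type at day 0 and at day 4, where 3.61% and 12.7% of all genes passed. For mosaic against wild type it was 0 at day 0 (4.30% of all genes) and 1 at day 4 (15.9%), and for mosaic against knockout 0 at day 0 (4.24%) and 1 at day 4 (6.07%). Both of the last were Sv2a. The 95% intervals of these differences reached 0.19 (Vamp2) to 0.67 (Syt1) to either side. These widths are not the size needed for a call, which was adjusted over 19016 genes. Sv2a in mosaic against wild type at day 4 (0.45, limma, adjusted p = 0.171) was not called although its interval excluded 0. The same held for Pcdh19 in knockout against wild type at day 0 (−1.27, 95% interval −1.83 to −0.71, adjusted p = 0.855). The smallest difference between genotypes that these arrays could call was not tested.

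**Figure D4:**
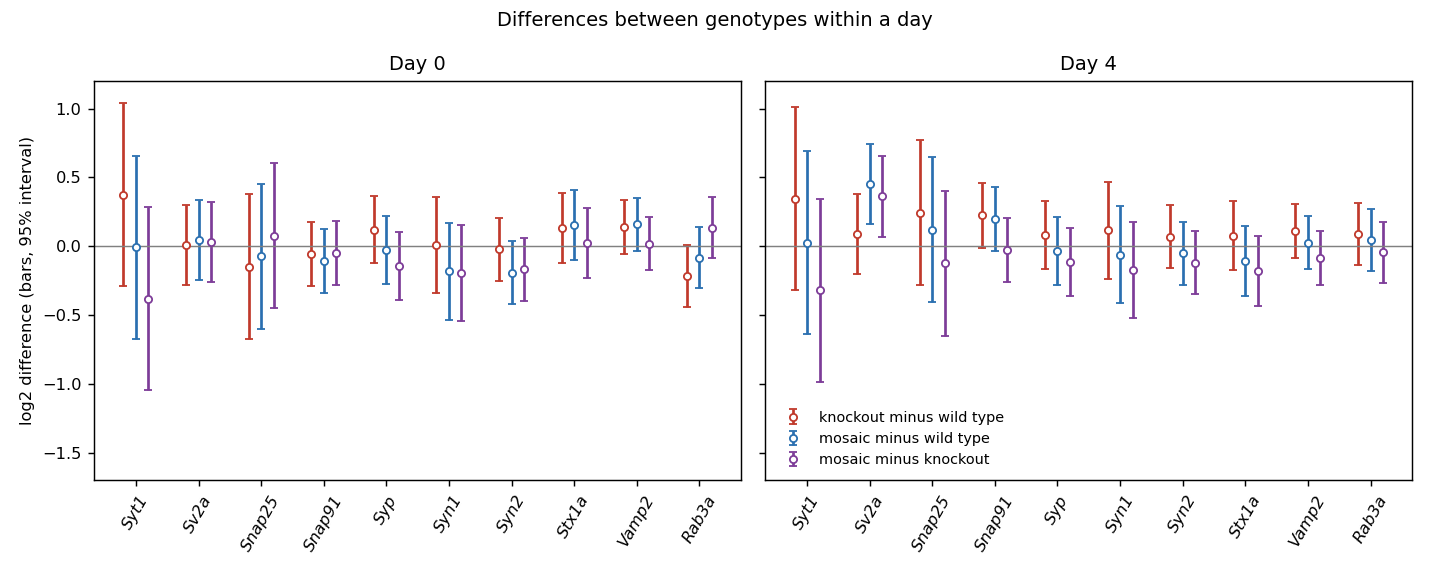
Log2 differences between genotypes at day 0 (left) and day 4 (right) for the 10 genes, with 95% intervals from limma; none passed an adjusted p under 0.05. Sv2a at day 4 is the gene whose interval excludes 0, for mosaic against wild type (0.16 to 0.74) and against knockout (0.07 to 0.65).

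At day 0, knockout differed from wild type by −0.22 (Rab3a) to 0.37 (Syt1), and the arrays of the genotypes overlapped for all 10 genes, whereas 4.76% of all genes were higher and 4.44% lower without overlap (smallest adjusted p = 1.0). Mosaic differed from wild type by −0.19 (Syn2) to 0.16 (Vamp2 and Stx1a). The 3 mosaic arrays of Syn2 (8.38, 8.32 and 8.21) lay below the wild type arrays (8.61, 8.47 and 8.41), as was the case for 5.63% of all genes, with an adjusted p of 0.999. Syt1 was lower in the mosaic arrays of day 0 than in those of knockout without overlap (−0.38, 95% interval −1.05 to 0.28), as were 4.88% of all genes.

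At day 4 all 10 genes were higher in the knockout mean than in the wild type mean, by 0.07 (Syn2) to 0.34 (Syt1). Of all genes, 51.9% were higher. None of the 10 was called (limma, smallest adjusted p = 0.415, for Snap91). The sign changed under at least 1 alternative setting for Sv2a, Snap25, Syp, Syn2 and Stx1a. The median difference was 0.10, against 0.01 over all genes, and it was 0.03 after quantile normalization. Rab3a was the gene whose arrays did not overlap, at 7.86, 7.85 and 7.83 in knockout against 7.73, 7.80 and 7.75 in wild type, a difference of 0.09 (95% interval −0.13 to 0.31). In 8.56% of all genes the knockout arrays lay above the wild type arrays. Against knockout, mosaic was higher at day 4 for Sv2a alone and lower in the mean for the other 9 genes, with a median of −0.12. Of all genes, 50.8% were higher in that comparison.

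Of the 10 genes, Sv2a had the largest difference of mosaic from wild type and from knockout at day 4. At an unadjusted p under 0.05 (limma) it was the 1 gene of 10 in each comparison, where 15.9% and 6.07% of all genes passed. It was therefore not read as particular to mosaic. At day 4 its mosaic mean of 8.25 ± 0.27 (SD, n = 3) was above 7.80 ± 0.23 in wild type and 7.89 ± 0.06 in knockout. The differences were 0.45 from wild type (95% interval 0.16 to 0.74, adjusted p = 0.171) and 0.36 from knockout (0.07 to 0.65, adjusted p = 0.797), and neither was called. The mosaic arrays lay above those of wild type, as in 9.62% of all genes, and above those of knockout, as in 4.24%. Against the mean of wild type and knockout the difference was 0.41 (0.15 to 0.66, adjusted p = 0.351), and in 1.58% of all genes all mosaic arrays lay above all arrays of both. The difference from wild type was 0.29 to 0.54 as each array was left out, with a smallest adjusted p of 0.0813, and it was lowest when mosaic replicate 3, the highest at 8.56, was removed. On that array Pcdh19 read 5.52, at the level of the knockout arrays of day 4 (5.70, 5.53 and 5.86). Its mean of the cell cycle markers, 7.08, was also the highest of its group. Whether the mix of cells differed on this array was not tested.

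The change over differentiation was also compared between genotypes, and no gene was called in any of the 3 comparisons (0% of all genes). At an unadjusted p under 0.05, 0 of the 10 passed in each, where 9.51% of all genes passed for knockout against wild type, 12.4% for mosaic against wild type and 4.29% for mosaic against knockout. The rise of Syt1 differed by 0.06 at most between genotypes, with 95% intervals that lay between −0.97 and 1.0. For Sv2a the mosaic rise exceeded that of wild type by 0.41 (adjusted p = 0.410), with a 95% interval that reached from just below 0 to 0.82. Rab3a and Snap91 rose in knockout by 0.31 (−0.01 to 0.62) and 0.28 (−0.05 to 0.61) more than in wild type, with an adjusted p of 0.537 and 0.586.

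The 3 arrays of a group were not alike for all genes at day 4. In knockout, array 3 was the lowest of its group for 6 of the 10 genes and the highest for 1, and in mosaic, array 3 was the lowest for 5 and the highest for 5. On array 3 of these 2 groups the largest deviations from the group mean were in Syt1 (−0.70 in knockout and −0.84 in mosaic), Snap25 (−0.51 and −0.57) and Syn1 (−0.24 and −0.34). On the same 2 arrays the mean of the neuron markers lay at −0.17 and −0.26 and that of the neuroblast markers at −0.30 and −0.32 from their group. Oligodendrocyte markers deviated by 0.29 in knockout and −0.28 in mosaic, and cell cycle markers by 0.16 and 0.53. Sv2a (−0.05 and 0.31), Snap91 (−0.15 and 0.09) and Rab3a (−0.02 and 0.12) lay above their group mean on the mosaic array. On the knockout array they too were the lowest of their group, by smaller deviations. The part of these markers in the spread of Syt1, Snap25 and Syn1 was not tested.

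**Figure D5:**
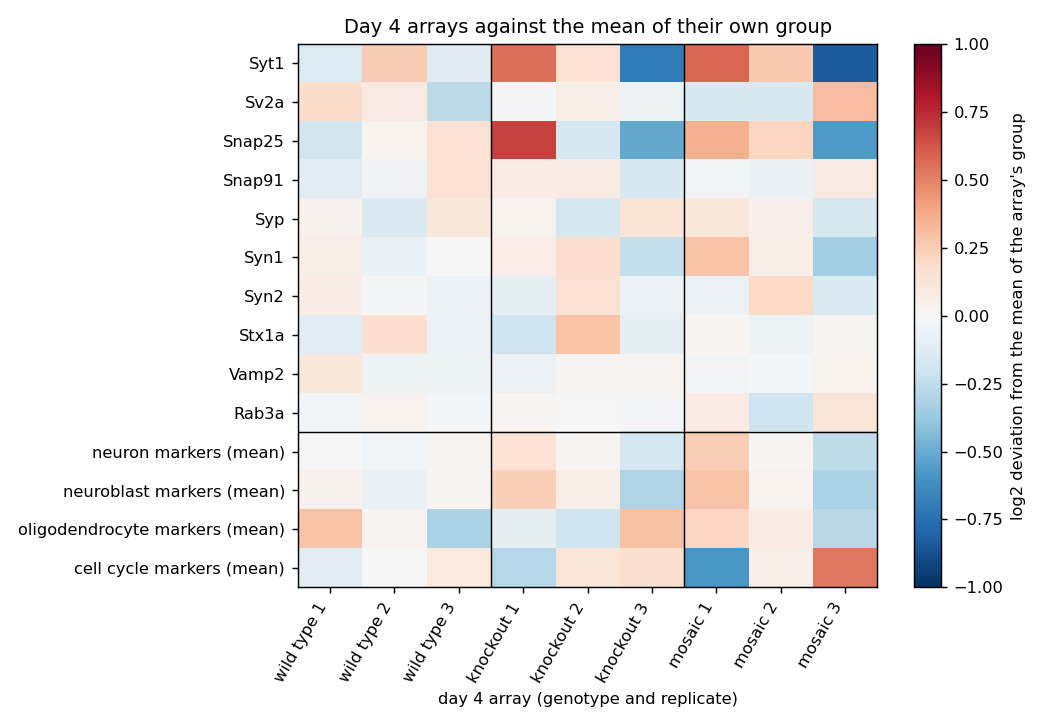
Deviation of each day 4 array from the mean of its own group of 3, in log2, for the 10 genes and for the mean of 4 marker lists; columns are arrays by genotype and replicate. Syt1 and Snap25 are lowest on array 3 of knockout and of mosaic, where the neuron and neuroblast markers are also below their group mean.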

How the data were processed

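RNA of 18 samples was labelled with biotin, per the labels, and hybridised to mouse gene arrays of a platform known to be from Affymetrix. The deposited values were taken as log2 signals, from their range of 0.722 to 13.97; the sources used here do not state the authors' background correction, normalization or summarisation, and arrays carry no depth, so their number limits the precision. Of 41345 probe sets, 23521 had 1 gene symbol in the platform annotation, 1814 had several and 16010 had none; only the first were used. Per gene the probe set of highest mean was kept. Genes above the 25th percentile of their array on at least 3 arrays were tested, which left out 3164 genes. Group means of the 6 groups were fitted with limma 3.58.1 in R 4.3.3 (lmFit, eBayes, two-sided, 12 residual degrees of freedom), with Benjamini-Hochberg adjustment over the genes tested. The code was tested on simulated data.

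The 10 genes, the lists and the tests were chosen with earlier results of these data known. All 10 are named, along with all widely expressed relatives, Pcdh19, Rest and the 8 genes most like the mean of the 10. Of the other lists, called genes with a large wild type difference are named, as a rule up to 4. The choice was not strictly by size. Among neuroblast and astrocyte markers, some genes that fell are described above, while risers with larger differences, such as Dlx5, Igfbpl1 and Aqp4, are not. Alternatives were quantile normalization, a common array median, 2 other filters, averaging the probe sets of a gene, a block for replicate number, eBayes with trend and robust options, weighted arrays, a fit on the compared groups alone, a threshold of 0.01, and omission of each array in turn. Promoters came from a RefSeq table of GRCm38.p6.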

Additional observations from a re-analysis of the deposited data

How the results depend on the processing

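The 140 differences of the 10 genes were recomputed 2494 times under the alternatives; 2463 values kept their side of the threshold, 27 lost a call, 3 gained one, and 1 changed direction. The last was Syp in knockout read from its other probe set (−0.11, adjusted p = 0.629). Of the 22 called differences 17 kept their call throughout; Syp in 3 genotypes, Syn1 (wild type) and Vamp2 (mosaic) did not; those of Syp in knockout and mosaic and of Vamp2 also ended in a fit on the compared groups alone (adjusted p of 0.0538, 0.0767 and 0.0672), and the first 2 when the probe sets were averaged (0.452 and 0.181). Of the 118 that were not called, 115 were never called and 56 changed sign under some setting, so the sign of an uncalled value carries little. The number of the 10 genes that rose was 5 to 7 in wild type, 6 to 7 in knockout and 6 to 8 in mosaic, and all genotype counts were 0 throughout.

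With the replicate number as a block (replicate block), 7 genes were called in wild type, 7 in knockout and 8 for mosaic cells, as without it. Among other genes the block ended the wild type call of Slc17a7 (adjusted p = 0.0603) and left 1 of the 2 risers among the other fusion genes in knockout. Arrays of the same number deviated together only weakly: 4 of 45 pairs correlated above 0.1, with a median r of 0.03. The number was not treated as a pairing. Within a genotype, day 0 and day 4 arrays of the same number all correlated above 0, with r of 0.02 to 0.16. Whether the number pairs samples within a genotype is not known. Calls of other genes named in the report ended as follows, in wild type unless stated. A common median ended those of Rims2 (adjusted p = 0.0747), Stxbp3 (0.0521), Slc18a1 (0.0545), Slc17a7 (0.0751) and, in mosaic, Snap23 (0.0606). Quantile normalization ended those of Stx4a (0.0747) and Slc17a7 (0.0574), and testing without a filter those of Rims2 (0.0554) and Slc17a7 (0.0558). Elavl4 in mosaic lost its call under all 3 of these settings and in a fit on the compared groups alone. That fit also ended the calls of Slc17a7 (0.0522), Stx4a (0.0638), Rab3b and Sox11 in knockout (0.0685 and 0.0597) and Snap23 in mosaic (0.0529). Averaged probe sets ended those of Cacnb4 (0.0675) and Slc32a1 (0.0600), and the trend and robust options those of Slc17a7 (0.0809), Slc18a1 (0.102) and Rab3b in knockout (0.0591). Calls were gained by Vamp7 under 5 settings (smallest 0.0316), Sypl under quantile normalization (0.0137), Syngr1 in knockout with the compared groups alone (0.0390), Slc17a7 in knockout under quantile normalization (0.0397) and a common median (0.0483), and, in mosaic, Sypl under a common median (0.0458), Vamp3 with weighted arrays (0.0493) and Stx4a under the stricter filter and the trend and robust options (0.0478 and 0.0493). Of the genes named below, Rest lost its wild type call under quantile normalization (0.0821) and with the compared groups alone (0.0644), and Chga gained one in mosaic under a common median, the stricter filter and the trend and robust options (0.0365, 0.0427 and 0.0388). The threshold of 0.01 ended further calls, which are those with a larger adjusted p in the text.

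With 3 arrays per group, stated to be technical replicates, the differences describe these cultures. The scale and processing of the deposited values rest on their range. A gene measured by 1 probe set has no second reading, and the second probe set of Syp was near the bottom of the range.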

Other observations

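Genes of the dense-core secretory granule, which neurons and neuroendocrine cells use for peptides, rose in part. Of 6 tested, wild type had 2 risers, knockout 4 and mosaic 3, with 1 left in mosaic without day 0 replicate 1. Scg3, a secretogranin, rose by 0.42, 0.58 and 0.80 (limma, adjusted p of 0.00532, 0.000520 and 2.25e-05) and kept its call without any single array. Chga, which encodes chromogranin A, rose by 0.57 in wild type (adjusted p = 0.0154) and 0.66 in knockout (0.00721) and differed by 0.45 in mosaic (0.0610); its wild type call was lost without day 0 replicate 1 or day 4 replicates 1 or 3 (adjusted p of 0.0581, 0.0620 and 0.0758).

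The REST repressor complex was measured as well. Of 7 genes, 4 fell in wild type and 2 in knockout and in mosaic, and the wild type count was 1 to 4 as single arrays were left out. Rcor2, a corepressor partner of the demethylase LSD1, fell by 0.75, by 0.79 and by 0.78 (limma, adjusted p of 4.66e-05, 2.52e-05 and 2.89e-05), and these calls held without any single array. Rest itself fell by 0.31 in wild type (adjusted p = 0.0270) and differed by −0.16 in knockout (0.277) and −0.14 in mosaic (0.358). Its wild type call was lost without each of 5 of the 6 arrays, day 0 replicates 1, 2 and 3 and day 4 replicates 1 and 2 (adjusted p of 0.0504, 0.0892, 0.0503, 0.144 and 0.0591), and after quantile normalization (−0.23, adjusted p = 0.0821).

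Of markers of cells from outside the neural lineage, 2 of 12 rose in wild type, where 17.2% of all genes did. Of 6 microglia markers 1 rose in wild type and 1 fell in knockout, the first lost without day 0 replicate 3 or day 4 replicate 2 and the second without day 0 replicates 2 or 3 or day 4 replicates 2 or 3. None was called in mosaic by limma (0 at an unadjusted p under 0.05; 1 rose without day 0 replicate 3), where their mean level was 4.56 to 4.69 at day 0 and 4.52 to 4.69 at day 4. Of 6 endothelial and mural markers 1 rose in each genotype, Pdgfrb, a receptor of pericytes, by 2.06, 2.29 and 2.11.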
